A study of Rattus norvegicus with 16 samples.

Results

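Transcripts of 9 genes of the extracellular matrix were followed in the rat dentate gyrus. They encode the fibrillar collagen chains Col1a1, Col1a2 and Col3a1, fibronectin (Fn1), the small leucine-rich proteoglycans decorin (Dcn) and biglycan (Bgn), the matricellular protein Sparc, and the lecticans neurocan (Ncan) and brevican (Bcan). Every probe set whose platform annotation named 1 of these symbols was taken, which gave 25 of the 8740 probe sets on the array that were not controls, for 9 of 4737 named genes. A probe set is the group of oligonucleotides on the array that together report 1 transcript. The low-intensity filter passed 21 of the 25, with at least 1 for every gene. The other 4, 1 of Dcn and 3 of Fn1, lay near the floor on most arrays and were not tested. The floor is a level chosen in the processing, to which all lower values were raised.

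Total RNA of the dentate gyrus, the entry region of the hippocampal formation, had been measured on 16 single-colour Affymetrix RGU34A arrays. Of the 7 groups, naive and 6 h held 3 arrays each, and 0 h, 2 h, 3 h, 12 h and 24 h held 2 each. In passive avoidance a rat learns to stay away from a place or act that had an unpleasant outcome. All labels, also those of the naive group, call the animals trained in this task. Naive is nevertheless read as untrained here, and the 13 arrays with an hour in their label are called trained. The labels do not state from what event the hours count, nor the strain, sex or age, nor that replicates came from separate animals. The p-values thus rest on a spread between samples that could be purely technical.

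Fibrillar collagens are triple helices that give connective tissue its tensile strength, and in brain they belong mainly to the meninges and the walls of larger vessels. Decorin and biglycan bind collagen fibrils, fibronectin links matrix to integrins on the cell surface, and Sparc binds collagen and is made in brain by astrocytes and endothelial cells. Neurocan and brevican are chondroitin sulfate proteoglycans that bind hyaluronan and form part of the perineuronal matrix around nerve cells.

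No member probe set passed the test after Benjamini-Hochberg adjustment over all 6220 tested probe sets, in trained against naive, at any single hour against naive, or in the F tests over groups (limma; lowest adjusted p over the members 0.404). Over all tested probe sets 0% passed as well, except at 2 h, where 1 probe set did (0.0161%). In trained against naive, 1 of the 21 member probe sets and 333 of 6220 overall (5.35%) had an unadjusted p under 0.05. The members' median difference was -0.01 on the log2 scale, as it was over all tested probe sets, with 9 above 0 and 12 below. For 11 of the 21, the 95% confidence interval of the difference lay within 1 log2 unit of 0 on both sides. For the remaining 10 the data allow a difference of more than 2-fold in at least 1 direction. Groups of arrays overlapped for every member: none had all trained arrays below or all above the naive arrays, which held for 0.193% and 0.0643% of tested probe sets. What separated the members was how they varied from array to array, and that is described below by gene.

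Overall brightness differed between arrays before scaling, with a 2% trimmed mean from 33.3 on 12 h replicate 1 to 170 on 24 h replicate 2, a 5.11-fold range. Pairwise correlations of log2 levels between arrays lay between 0.908 and 0.973. The 3'/5' ratio of beta-actin, which rises as the labelled RNA gets shorter, was 1.49 to 1.70 on naive and 1.51 to 2.80 on trained arrays. Of 14 markers of dentate granule neurons 9 were on the array, 6 of them above the low-intensity threshold on every array, with summed levels of 2559 to 3115 on naive and 2427 to 4398 on trained arrays. Of 17 choroid plexus and ependyma markers 11 were on the array, 5 of them above that threshold on every array. Their summed level was 2305 to 5625 on naive and 347 to 4823 on trained arrays, with 10 of the 13 trained arrays below the lowest naive one.

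Col1a1 and Col1a2 encode the chains of type I collagen, and Col3a1 that of type III collagen, which is made by the same fibroblasts. Col1a1 was read by 4 probe sets, Col3a1 by 2 and Col1a2 by 1. On the log2 scale of scaled intensity, the Col1a1 probe set M27207mRNA_s_at stood at 4.74, 6.19 and 6.33 on the naive arrays. It was 6.50 and 5.53 at 0 h, 5.34 and 7.37 at 2 h, 6.12 and 5.59 at 3 h, 5.72, 7.79 and 5.21 at 6 h, 5.30 and 6.51 at 12 h, and 4.89 and 4.91 at 24 h. The highest level was on 6 h replicate 2 and the lowest on naive replicate 1, an 8.29-fold range, and replicates of 1 group lay as far apart as the groups did. The difference trained minus naive was 0.12 ± 0.49 (SE; 95% confidence interval -0.91 to 1.16), and 5 of 13 trained arrays lay above the naive mean.

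The other 3 Col1a1 probe sets varied less, over 3.16-fold to 3.54-fold ranges. Their differences were 0.30 ± 0.28 (SE; Z78279_g_at), -0.00 ± 0.28 (Z78279_at) and 0.37 ± 0.32 (rc_AI231472_s_at). The last was the largest positive difference among the members (unadjusted p = 0.261 by limma), with 10 of 13 trained arrays above the naive mean, and leaving out naive replicate 1 gave 0.06 where leaving out naive replicate 2 gave 0.67. Z78279_g_at was highest in the 2 h group and Z78279_at in the 12 h group, and their levels correlated at r = 0.40 over the 16 arrays.

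Col1a2 (rc_AA875531_s_at) was 4.12, 5.98 and 5.31 on the naive arrays. The hours read 4.86 and 4.44 (0 h), 5.32 and 5.90 (2 h), 5.11 and 5.51 (3 h), 5.12, 6.16 and 5.17 (6 h), 5.16 and 5.97 (12 h), and 4.83 and 4.64 (24 h). As for Col1a1, naive replicate 1 was the lowest array and 6 h replicate 2 the highest, and the naive arrays alone spanned most of the range. Trained minus naive was 0.09 ± 0.33 (SE; interval -0.61 to 0.78).

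Col3a1 gave 2 readings. The probe set M21354_s_at stood at 4.12, 5.25 and 5.10 on naive arrays, at 5.45 and 5.58 at 2 h, and between 4.37 and 5.47 on the other 11 trained arrays. Both 2 h arrays lay above every naive array, and the 2 h difference was 0.69 ± 0.36 (SE; interval -0.07 to 1.46; unadjusted p = 0.0733, adjusted p = 0.665 by limma). Without naive replicate 1 it was 0.34. It was the smallest p of any member at 2 h, where 0 of the 21 members and 7.67% of all tested probe sets had an unadjusted p under 0.05. The second Col3a1 probe set, X70369_s_at, spanned a 10.5-fold range, from 2.64 on 0 h replicate 2 to 6.04 on 2 h replicate 2. Over all hours the differences from naive were 0.06 ± 0.25 (SE) and 0.13 ± 0.53. The sign of 4 of the 7 collagen differences rested on naive replicate 1, which read lowest of the naive arrays for all 7 probe sets: without it trained minus naive was -0.38 for Col1a1 M27207mRNA_s_at, -0.42 for Col1a2, -0.29 for Col3a1 M21354_s_at and -0.32 for X70369_s_at.

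**Figure D1:**
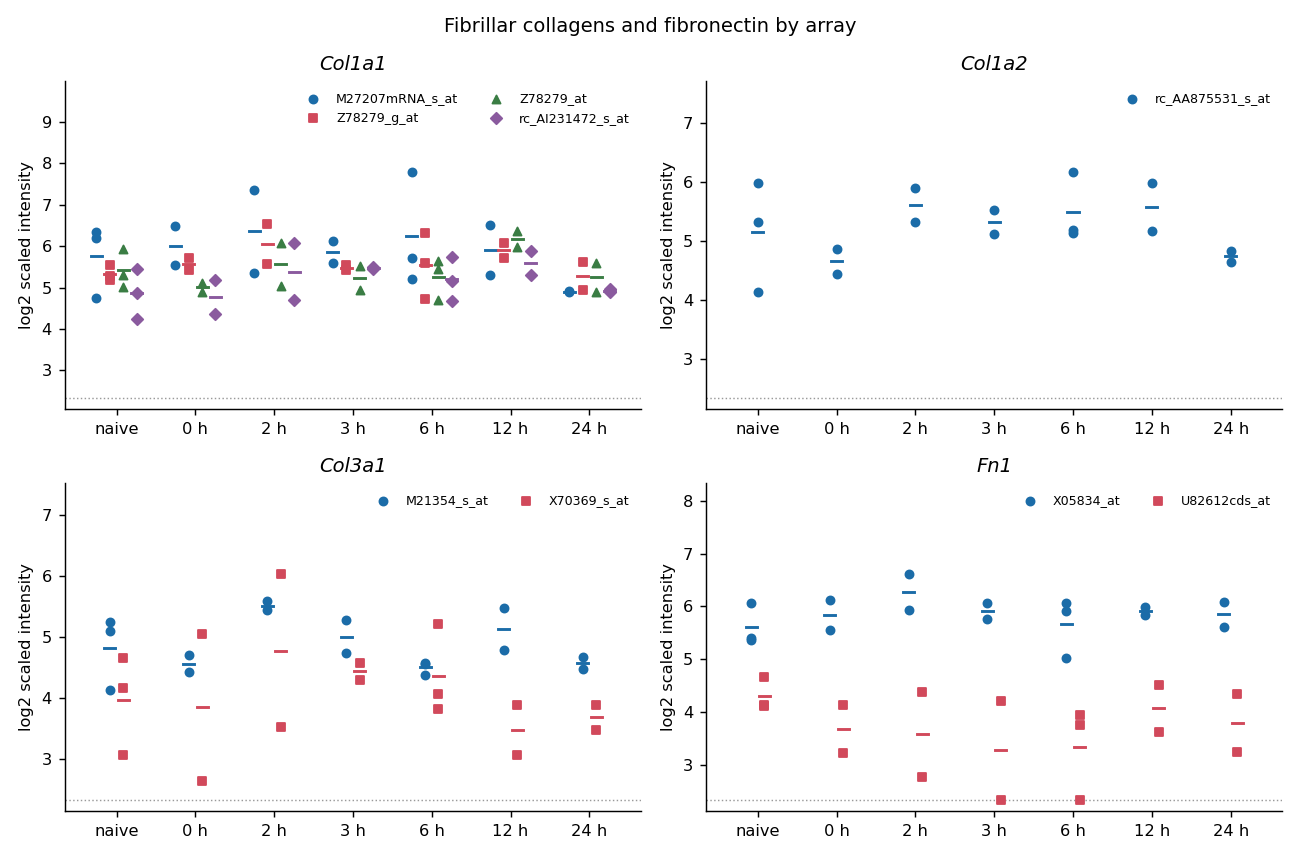
Log2 scaled intensity (vertical axis) of each tested probe set of the fibrillar collagens and Fn1 on every array, by group (horizontal axis). Points are single arrays, short bars are group means, and the dotted line is the floor of 2.34. The naive arrays of Col1a1 M27207mRNA_s_at run from 4.74 to 6.33 and its 2 h arrays from 5.34 to 7.37.

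Of the 3 fibrillar collagen genes, RefSeq's promoter table (build GRCr8) held an entry only for Col1a2. Its window, from 250 bases before to 50 after the gene's start, was searched on both strands for the core promoter motifs TATAAA, held by 14.2% of 33469 windows, and CCAAT, held by 37.5%. It held both, CCAAT on the opposite strand 221 bases before the start and TATAAA on the gene's strand 170 bases before it. The first 110 bases are shown because they carry both matches, in capitals (chr4:33518307-33518416, plus strand):
Col1a2: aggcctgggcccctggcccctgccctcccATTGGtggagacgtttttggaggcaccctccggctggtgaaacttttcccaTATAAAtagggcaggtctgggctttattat
The matches describe the letters of this window and were not tied to any measurement here. Of the other members, Ncan, Sparc and Bcan had entries. Ncan held TATAAA on the opposite strand 57 bases before the start, in capitals (chr16:19335817-19335906, plus strand):
Ncan: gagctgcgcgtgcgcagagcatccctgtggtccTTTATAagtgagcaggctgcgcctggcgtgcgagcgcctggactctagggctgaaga
The Sparc and Bcan windows held neither set of letters.

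Probe sets of different collagen genes mostly varied together over the 16 arrays. The 14 pairs of probe sets from different collagen genes had a median Pearson r of 0.55 (-0.25 to 0.75), and 13 of the 14 were above 0. Between a collagen and any other member the median r was 0.13 over 98 pairs. Probe sets of the same collagen gene did not always vary together. The 6 Col1a1 pairs had r of 0.11 to 0.78 (median 0.44), and the Col3a1 pair had 0.25. Col1a1 M27207mRNA_s_at and Col1a2 had r = 0.75 (Spearman rho 0.69), and without the 2 arrays farthest from the median of Col1a1 r was 0.62. The same Col1a1 probe set and Col3a1 X70369_s_at had r = 0.71, which dropped to 0.45 without the 2 farthest arrays. These correlations are descriptions over arrays that share their scaling and, within a group, their labelled condition, and no p is given for them.

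**Figure D2:**
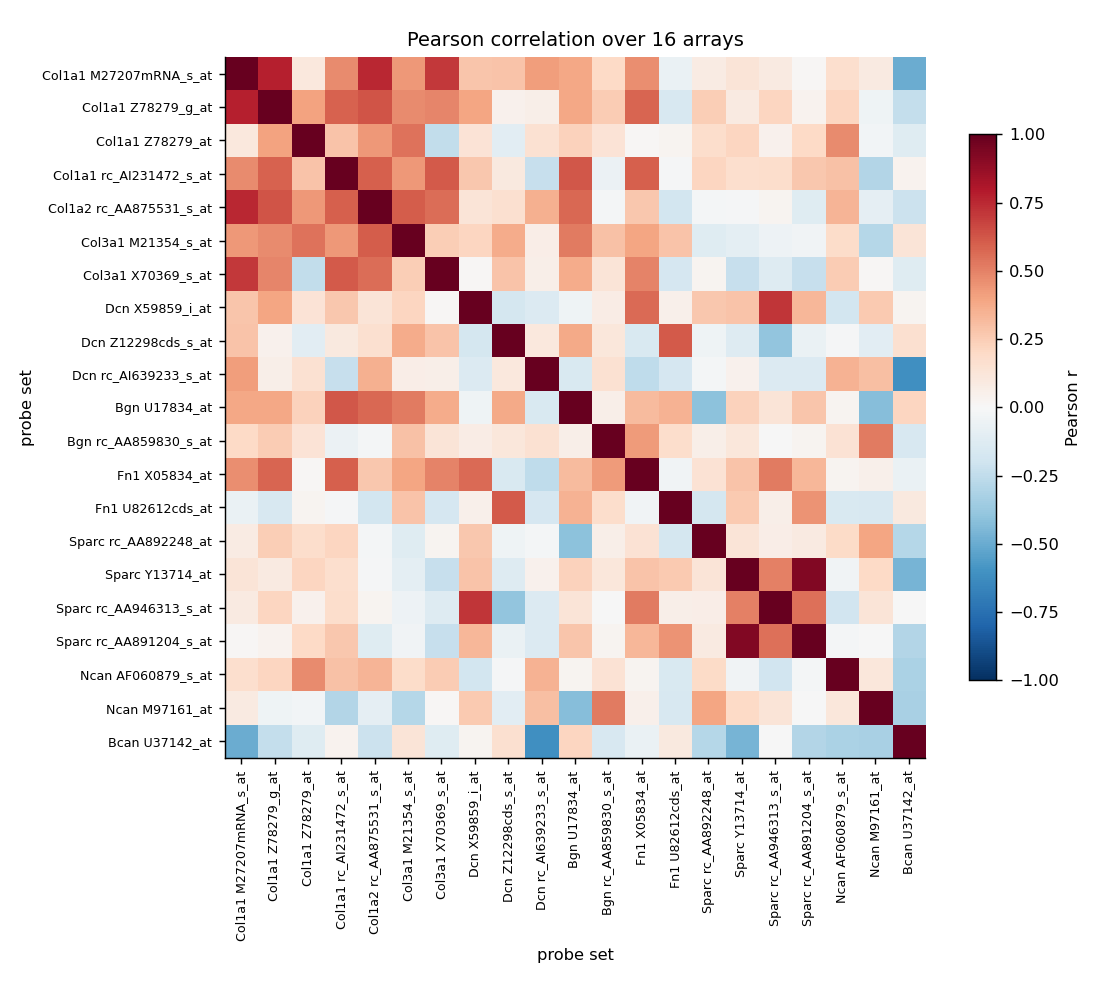
Pearson correlation over the 16 arrays between every pair of the 21 tested member probe sets, on the log2 scale, with colour from negative to positive r. Pairs from different fibrillar collagen genes have a median r of 0.55, and pairs of a collagen with another member 0.13.

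Some of the collagen probe sets varied over the arrays with markers of meninges and fibroblasts. Col1a1 M27207mRNA_s_at and Col1a2 nevertheless had their highest and lowest levels on other arrays than the markers had. Of 20 listed genes, none of them a member, 14 were on the array. Of these, 7 were above the low-intensity threshold on every array, and none was at the floor on all arrays. Their summed level was 872, 2359 and 1683 on the naive arrays and 541 to 2608 on the trained arrays (median 1093). It was highest on 2 h replicate 2, and the 24 h arrays had the lowest sums, 630 and 541. Over the 16 arrays the log2 of this sum correlated with Col1a1 M27207mRNA_s_at at r = 0.82 (rho 0.86), and at 0.74 without 2 h replicate 2 and 24 h replicate 2. Only 0.0482% of all tested probe sets had a larger absolute r with it, among them genes that enter the sum. For Col1a2 r was 0.75 (rho 0.76; 0.70 without those arrays), for Col3a1 X70369_s_at 0.69 (0.64) and for Col3a1 M21354_s_at 0.47 (0.33). The other 3 Col1a1 probe sets gave 0.59 (Z78279_g_at; 0.32 without those arrays), 0.58 (rc_AI231472_s_at; 0.46) and 0.11 (Z78279_at; 0.12), so the collagen probe sets did not track the sum equally.

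Ptgds, the prostaglandin D synthase of the leptomeninges and choroid plexus, made up 37.4% to 66.8% of the sum. Without Ptgds the correlation was 0.72 for Col1a1 M27207mRNA_s_at and 0.71 for Col1a2. Taken singly, all 14 marker genes correlated above 0 with Col1a1 M27207mRNA_s_at (median r 0.54), among them Aldh1a2, the retinaldehyde dehydrogenase of meningeal cells (0.84), Gjb2, a gap junction protein (0.80), and Mgp, matrix Gla protein (0.73). Fmod (0.08) and Slc6a13 (0.19) were the lowest. In bulk tissue, fewer cells of a type and less RNA per cell cannot be told apart. The part of meningeal tissue in the collagen levels was not tested.

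Among the remaining members, Dcn Z12298cds_s_at had r = 0.60 with that sum (0.39 without the 2 farthest arrays) and Bgn U17834_at 0.59 (0.60). Both lie within the range of the collagens, but the other probe sets of these genes were lower over all arrays. Dcn rc_AI639233_s_at had 0.36 (0.60 without those arrays), Dcn X59859_i_at 0.18 (0.02) and Bgn rc_AA859830_s_at 0.07 (-0.09). Fn1 gave 0.30 and 0.11, and Ncan 0.26 and -0.01. The 4 Sparc probe sets lay between 0.01 and 0.05, and Bcan was at -0.13. With the summed choroid plexus markers Col1a1 M27207mRNA_s_at had r = 0.29 and Col1a2 0.13. Dcn Z12298cds_s_at had r = 0.52 with them (rho 0.61, and r = 0.30 without the 2 farthest arrays).

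Fn1 was read by 2 tested probe sets that did not vary together (r = -0.04). X05834_at stood at 5.40, 5.36 and 6.06 on the naive arrays and between 5.02 on 6 h replicate 3 and 6.62 on 2 h replicate 2 on the trained ones. The trained arrays spanned the naive range on both sides, with 10 of 13 above the naive mean. The difference was 0.30 ± 0.25 (SE; interval -0.22 to 0.82). U82612cds_at was lower by 0.69 ± 0.47 (SE) and was at the floor on 3 h replicate 2 and 6 h replicate 2. The signs of the Fn1 readings were opposite, and neither interval excluded 0.

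Decorin's 3 tested probe sets did not vary together, with pairwise correlations between -0.18 and 0.11. Z12298cds_s_at stood at 3.83, 5.26 and 4.58 on naive arrays. At the hours it was 3.68 and 3.96 (0 h), 2.77 and 5.15 (2 h), 4.26 and 2.72 (3 h), 3.33, 2.34 and 4.20 (6 h), 2.59 and 3.60 (12 h), and 2.89 and 2.34 (24 h). Group means ran from naive at the top, through 2 h, 0 h, 3 h, 6 h and 12 h, to 24 h at the bottom, but every neighbouring pair in that order overlapped, and 12 of 13 trained arrays lay below the naive mean. The difference trained minus naive was -1.18 ± 0.51 (SE; interval -2.26 to -0.11; unadjusted p = 0.0332, adjusted p = 0.922 by limma). This was the only member with an unadjusted p under 0.05 in that comparison, against 3.7% of all tested probe sets that were lower at that level.

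At single hours the same Dcn probe set had the smallest p of any member at 6 h, 12 h and 24 h. It differed from naive by -1.27 at 6 h (unadjusted p = 0.0668, adjusted p = 0.543 by limma) and by -1.47 at 12 h (0.0588 and 0.504). At 24 h the difference was -1.95 ± 0.72 (SE; interval -3.47 to -0.42; unadjusted p = 0.0157, adjusted p = 0.966), and both 24 h arrays lay below all 3 naive arrays. Since 24 h replicate 2 and 6 h replicate 2 were at the floor, these sizes depend on where the floor is set. With it at the 30th percentile the 24 h difference was -1.28. With Ttr, transthyretin of the choroid plexus, as a covariate the differences were -1.16 at 6 h, -0.10 at 12 h and -0.17 at 24 h. Leaving out 1 array moved the 6 h value to between -1.72 and -0.79 (smallest without 6 h replicate 2), and the 12 h value to between -1.97 and -0.96 (smallest without 12 h replicate 1). At 24 h 1 of the 21 members was lower at an unadjusted p under 0.05, as were 3.47% of all tested probe sets (4.44% in either direction). At 6 h and 12 h no member had such a p, against 9.41% and 10.1% of all tested probe sets. The 3 comparisons share the naive arrays.

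The other Dcn readings were also lowest at 24 h. There rc_AI639233_s_at was lower than naive by 1.24 ± 0.60 (SE; unadjusted p = 0.0549 by limma), with both 24 h arrays (2.68 and 2.46, the second near the floor) below the naive arrays, and X59859_i_at differed by -0.65 ± 0.93. Over all hours the 3 readings diverged. X59859_i_at ran from 3.22 to 6.63, both on 6 h arrays, and its trained minus naive difference was 0.16 ± 0.65 (SE; interval -1.22 to 1.54). rc_AI639233_s_at was lower by 0.49 ± 0.42 (SE). The low-level probe set X59859_r_at was at the floor on 7 arrays. It was highest on the 12 h arrays, at 4.09 and 3.76, where the remaining arrays lay at 3.46 or below. With no intensity filter this probe set passed the test at 12 h (log2 difference 1.37 ± 0.21, SE; adjusted p = 0.0303 by limma), a value on 1 dim probe set of 4 for the gene. Dcn Z12298cds_s_at also moved with Ttr (r = 0.53, rho 0.56), and with Ttr as a covariate its trained minus naive difference was -0.06. Since Ttr was below every naive array on most trained arrays, this fit cannot separate Ttr from training.

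Biglycan was steadier. U17834_at stood at 6.19, 6.90 and 6.50 on naive arrays and between 6.00 on 0 h replicate 2 and 7.07 on 12 h replicate 2 on trained ones, a 2.09-fold range overall. Trained minus naive was -0.05 ± 0.22 (SE; interval -0.51 to 0.41), so a change of 2-fold over the hours as a whole lay outside the interval. The second Bgn probe set, rc_AA859830_s_at, was at the floor on 1 naive array and 3 trained arrays, and differed by -0.32 ± 0.51. It spanned a 6.38-fold range and correlated with U17834_at at r = 0.06.

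Sparc was read by 4 probe sets. Y13714_at was 8.34, 8.44 and 9.10 on the naive arrays and 8.02 to 9.58 on the trained ones, with both extremes at 6 h. rc_AA891204_s_at followed it closely (r = 0.93), and rc_AA946313_s_at spanned only a 1.63-fold range, from 7.38 to 8.08. The trained minus naive differences of these 3 were -0.03 ± 0.25, -0.04 ± 0.26 and -0.01 ± 0.19 (SE), and the interval of the last was -0.41 to 0.39.

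The fourth, rc_AA892248_at, did not follow the other 3. It was 11.58, 11.27 and 11.43 on naive arrays, 11.99 and 11.69 at 0 h, 11.97 and 11.76 at 2 h, and 11.11 and 11.15 at 3 h. It then read 12.24, 11.62 and 11.71 at 6 h, 12.40 and 11.32 at 12 h, and 11.27 and 10.76 at 24 h. The 0 h, 2 h and 6 h arrays all lay above the naive arrays, and both 3 h arrays below them. Over the 7 groups the F test gave an unadjusted p of 0.0315 (adjusted p = 0.465 by limma), and over the 6 hours 0.0230 (adjusted p = 0.404). It was the only member with an unadjusted p under 0.05 in either, where 10.3% and 10.8% of all tested probe sets had one. Its trained minus naive difference was 0.17 ± 0.20 (SE).

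Its level moved with the brightness of the array before scaling, at r = -0.83 (rho -0.82), and r was -0.70 without 12 h replicate 1 and 6 h replicate 1. Only 0.514% of tested probe sets had a larger absolute correlation with brightness. The probe sets most like it were those of mitochondrially encoded cytochrome c oxidase subunits, COX3 (r = 0.93), COX2 (0.86) and COX1 (0.84). Over the 4 probe sets of these subunits, which were looked up after the values were seen, rc_AA892248_at correlated at 0.82 to 0.93 and the other 3 Sparc probe sets at 0.19 to 0.40. The 4 subunit probe sets had r of -0.91 to -0.72 with brightness. The other Sparc probe sets correlated with brightness at -0.24 to -0.01, and with rc_AA892248_at at only 0.07 to 0.13. With brightness as a covariate, chosen after seeing the data, the adjusted p of rc_AA892248_at was 0.825 over the 7 groups and 0.775 over the 6 hours (limma). Scaling divided each array by this same brightness. Brightness also differed between groups (72.6 and 56.6 at 2 h, 117 and 170 at 24 h), so this covariate can take up group differences as well. Why this probe set varied was not tested.

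**Figure D3:**
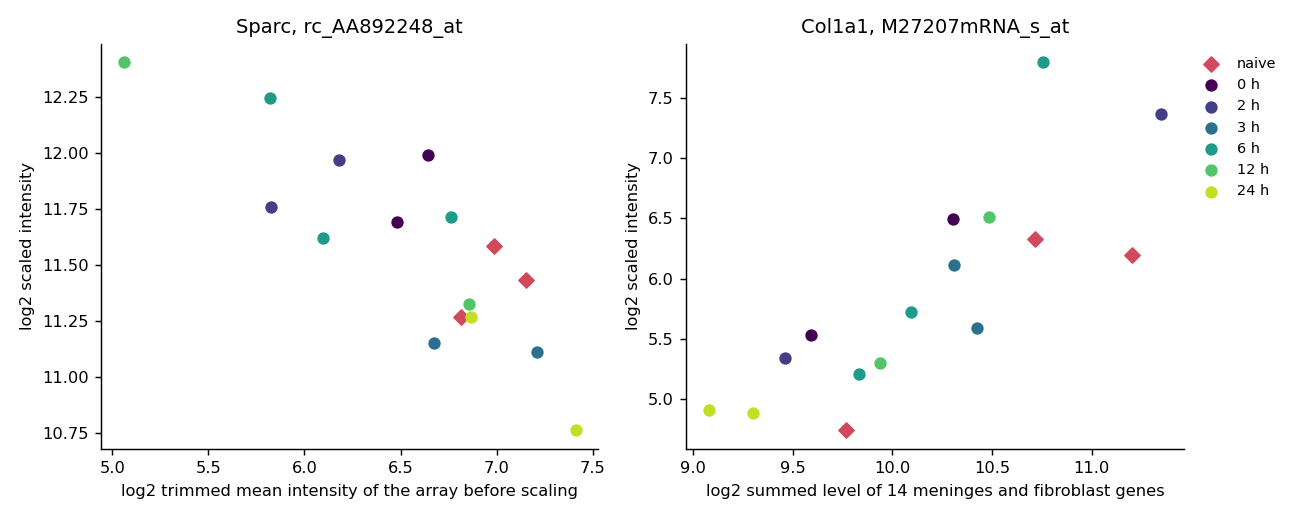
Left, the Sparc probe set rc_AA892248_at (log2 scaled intensity) against the log2 trimmed mean intensity of each array before scaling; right, the Col1a1 probe set M27207mRNA_s_at against the log2 summed level of 14 meninges and fibroblast markers. Points are the 16 arrays, coloured by group. The Sparc probe set shown is lower on brighter arrays (r = -0.83), where the other Sparc probe sets had r of -0.24 to -0.01. The Col1a1 probe set shown is higher where the markers are higher (r = 0.82), and the other Col1a1 probe sets had r of 0.11 to 0.59.

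Brevican, made by astrocytes and oligodendrocyte lineage cells, had the smallest spread within groups. U37142_at stood at 8.96, 8.74 and 8.44 on naive arrays. It was 8.23 and 8.53 at 0 h, 8.76 and 8.90 at 2 h, 8.75 and 8.99 at 3 h, 8.63, 8.18 and 8.62 at 6 h, 8.55 and 8.46 at 12 h, and 8.79 and 8.70 at 24 h. All 16 arrays lay within a 1.75-fold range, and the within-group SD was 0.20, the smallest of the 21 member probe sets, whose median was 0.557 against 0.368 over all tested probe sets. The difference trained minus naive was -0.08 ± 0.15 (SE; interval -0.39 to 0.24; unadjusted p = 0.603). The 0 h arrays were lower by 0.34 ± 0.21 (SE; unadjusted p = 0.132, adjusted p = 0.998 by limma), the smallest p of any member at 0 h, where 0 of the 21 members and 5% of all tested probe sets passed 0.05 unadjusted.

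Neurocan, secreted by neurons and astrocytes and most abundant in the developing brain, was dim and variable. M97161_at read 4.29, 2.34 and 5.27 on the naive arrays, so that 1 of the 3 was at the floor. At 3 h both arrays were at the floor. The fitted 3 h minus naive difference was -1.63 ± 0.76 (SE; unadjusted p = 0.0470, adjusted p = 0.998 by limma). Its size depends on where the floor is set, and was -1.004 with the floor at the 30th percentile, and -0.98 without naive replicate 3. It was the only one of the 21 members with an unadjusted p under 0.05 at 3 h, against 3.54% of tested probe sets that were lower and 4.31% in either direction. AF060879_s_at ran from 2.58 to 5.07 on naive arrays and from 2.58 to 5.11 on trained ones. Trained minus naive was -0.95 ± 0.53 (SE) for M97161_at (-0.30 without naive replicate 3, -1.76 without naive replicate 2) and -0.57 ± 0.52 for AF060879_s_at. The Ncan probe sets correlated at r = 0.11, and M97161_at moved with Ttr at r = 0.52 (rho 0.34; 0.32 without the 2 farthest arrays).

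**Figure D4:**
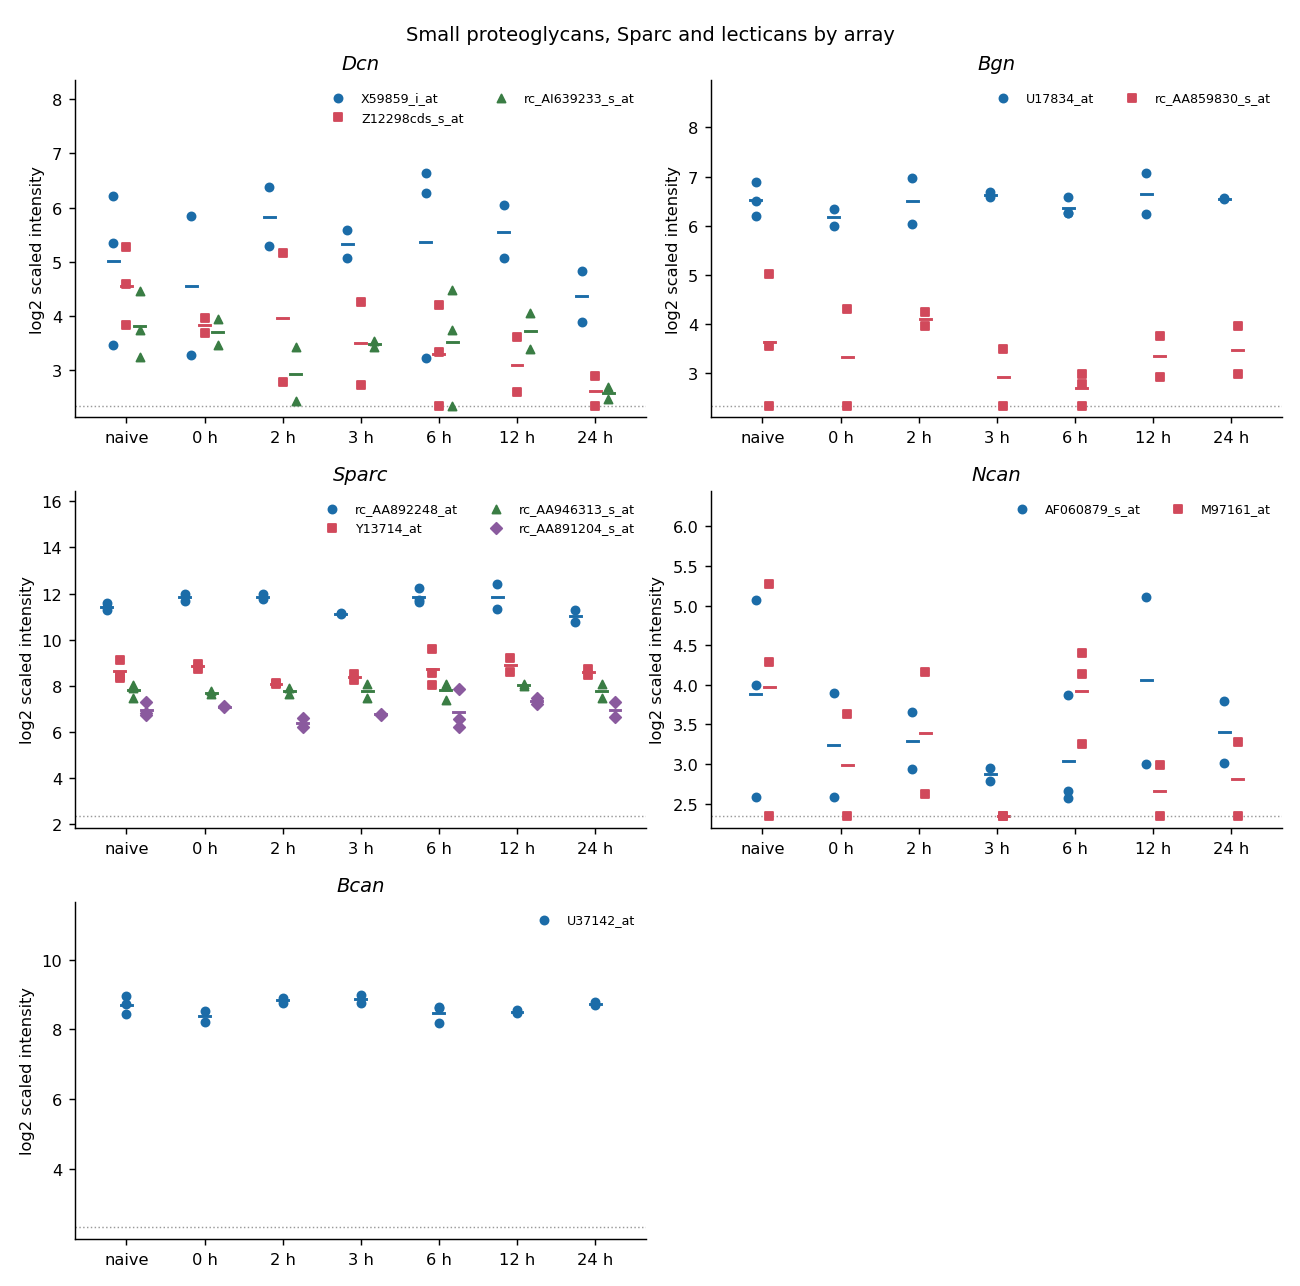
Log2 scaled intensity (vertical axis) of each tested probe set of Dcn, Bgn, Sparc, Ncan and Bcan on every array, by group (horizontal axis). Points are single arrays, short bars are group means, and the dotted line is the floor of 2.34. All Bcan values lie between 8.18 and 8.99, and Dcn and Ncan reach the dotted line.

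**Figure D5:**
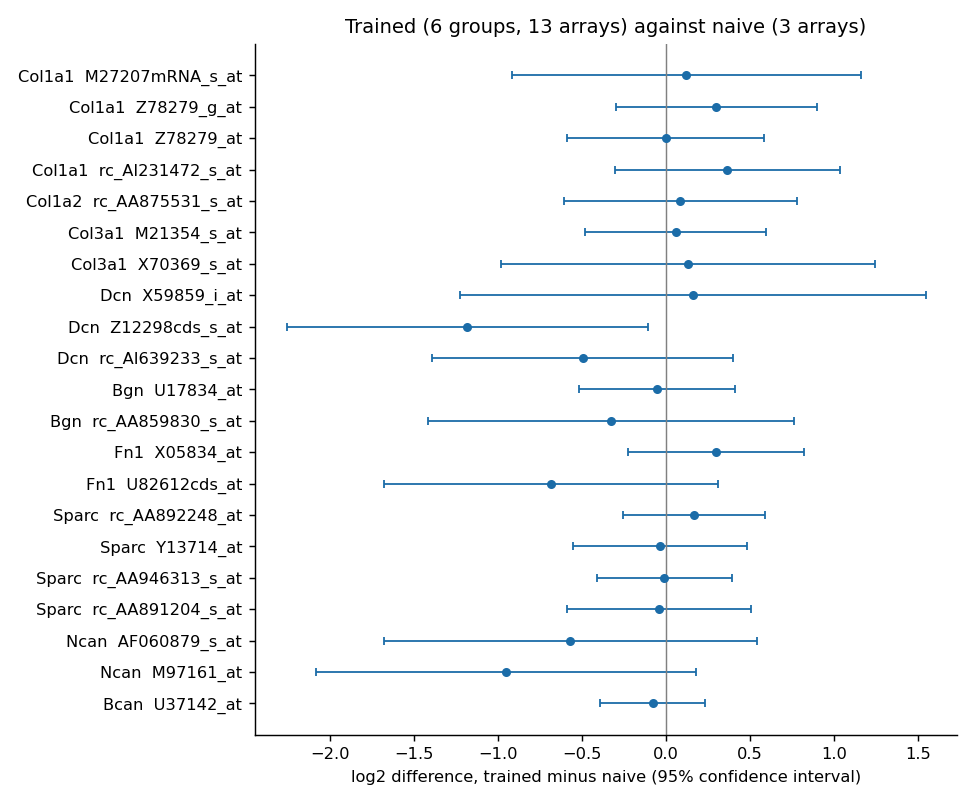
Difference of trained minus naive in log2 units (horizontal axis) for the 21 tested member probe sets, with 95% confidence intervals from limma. Every interval but that of Dcn Z12298cds_s_at (-2.26 to -0.11) includes 0, and no difference passed adjustment over 6220 probe sets.

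Ordering the groups by their mean gave few steps beyond the spread. Of 126 pairs of neighbouring group means over the 21 probe sets, 119 overlapped, and in 4 the gap exceeded the within-group SD. The 2 h group was the highest for Col1a1 M27207mRNA_s_at (mean 6.36), Col1a2 (5.61), both Col3a1 probe sets and Fn1 X05834_at (6.27). It was also highest for Col1a1 Z78279_g_at, Dcn X59859_i_at and Bgn rc_AA859830_s_at. The 12 h group was the highest for Col1a1 Z78279_at and rc_AI231472_s_at, Bgn U17834_at, every Sparc probe set and Ncan AF060879_s_at. The 2 h replicates read 5.34 and 7.37 for Col1a1 M27207mRNA_s_at, and it was replicate 2 that held the highest sum of meningeal markers. At 0 h, 15 of the 21 member probe sets were below naive (median -0.26, against 52.7% of all tested probe sets below). At 12 h, 14 of 21 were above and 7 below (median 0.22), where 44.1% of all tested probe sets were below (median 0.06). At 24 h, 16 of 21 were below (median -0.24, against 50.5% of all tested probe sets). The members are not independent of each other, and the hours share the naive arrays. The 24 h arrays had the lowest sums of several marker lists: meninges and fibroblasts, oligodendrocytes (2827 and 3060, naive 4524 to 6103), and endothelium and mural cells (570 and 590, naive 635 to 983). Their choroid plexus sums were 395 and 347. Of 12 oligodendrocyte probe sets 11 had an unadjusted p under 0.05 at 24 h, all lower (median difference -0.96, lowest adjusted p 0.0835 by limma). Not every list was low at 24 h. Oligodendrocyte precursor sums were the highest of all arrays there (1426 and 1348, naive 965 to 1211). Dentate granule neuron sums were 2745 and 3097 (naive 2559 to 3115). The part of these cell types in the members' 24 h levels was not tested.

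The genes whose pattern over the arrays was most like that of a member were taken for its brightest probe set, from 5121 to 5124 tested probe sets of other genes. For Col1a1 they were Fstl1, a secreted follistatin-like glycoprotein (r = 0.89; 0.76 without the 2 farthest arrays), Aldh1a2 (0.84; 0.72) and Fmo1, a flavin monooxygenase (0.83; 0.66). For Col1a2 they were the ferroxidase ceruloplasmin, Cp (0.79), Col1a1 (0.75) and Eif2s1 (0.75). For Col3a1 M21354_s_at they were Gpr19 (0.79), the collagen-binding integrin chain Itga1 (0.76) and Bmp6 (0.75). Bgn was most like Fcgrt (0.76), the laminin chain Lamb2 (0.75) and Acp5 (0.75), and Fn1 most like Atp2b2 (0.82), Gaa (0.76) and the collagen cross-linking enzyme Lox (0.75). Bcan was most like the phosphodiesterase Pde2a (0.92), the spectrin chain Sptan1 (0.89) and Golgb1 (0.86). Dcn was led by Il15 (0.81) and Ncan by Lypla1 (0.83). Each is the highest of all those correlations, over 16 arrays.

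Other matrix genes were taken from 8 lists covering other collagens, collagen processing, other proteoglycans, lectican partners and hyaluronan, matrix glycoproteins, proteases and inhibitors, matrix receptors, and TGF-beta genes. Of 148 genes 98 were on the array and 72 were tested, by 93 probe sets. None passed adjustment in any comparison. In trained against naive 6 of the 93 had an unadjusted p under 0.05 (6.45%, near the 5.35% over all tested probe sets), 1 higher and 5 lower, with 34 differences above 0 and 59 below and a median of -0.09. All 6 had adjusted p-values of 0.922 or more (limma).

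The collagen processing list had 1 of 16 probe sets below that p, P4hb M21476_s_at (protein disulfide isomerase, the beta subunit of prolyl 4-hydroxylase). It stood at 5.24, 5.03 and 5.51 on naive arrays and below every naive array on all 13 trained arrays. The difference was -0.90 ± 0.31 (SE; unadjusted p = 0.0104 by limma). Such a separation held for 12 of 6220 tested probe sets (0.193%). Like the others with such a p below, this probe set was picked for that p. The other 2 P4hb probe sets differed by -0.18 and 0.17. Among 20 probe sets of other proteoglycans 3 had such a p: 2 for fibromodulin, Fmod (-0.78 and -1.38), and Srgn, serglycin of blood-derived cells (0.82 ± 0.34, SE; all 13 trained arrays above the naive mean). Among 15 of proteases and inhibitors there were 2, the gelatinase Mmp2 U65656_at (-0.92 ± 0.37, SE) and its inhibitor-family member Timp1 (-0.42). The second Mmp2 probe set differed by 0.47. No probe set had such a p among the 7 of other collagens, the 6 of lectican partners and hyaluronan, the 10 of matrix glycoproteins, the 10 of matrix receptors and the 9 of TGF-beta genes. In the F test over 7 groups 7 of the 93 (7.53%, against 10.3% overall) did, for Fmod, Cd44, Ddr1, Tgfb3, Cspg5, Gpc1 and Serpine2, with a lowest adjusted p of 0.338.

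In the meninges and fibroblast list, 3 of 18 probe sets had an unadjusted p under 0.05 in trained against naive, all lower. They were both Fmod probe sets and Igf2 X17012mRNA_s_at (-1.35 ± 0.40, SE; unadjusted p = 0.00373, adjusted p = 0.748 by limma), the insulin-like growth factor of leptomeninges and choroid plexus. The other Igf2 probe sets differed by -0.09, -0.09 and 0.44. In the choroid plexus list 13 of 17 had such a p, all lower, with a median difference of -1.66 and a lowest adjusted p of 0.181.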

How the data were processed

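The deposited values are linear intensities, 1 for each probe set on each array. How the authors summarised, background-corrected and scaled them is not given in the sources used here. Of 8799 probe sets 59 controls were left out. Arrays were brought to 1 common 2% trimmed mean (105). Values under the pooled 20th percentile, the floor, were raised to it (5.05, which is 2.34 in log2), and all were log2-transformed. Probe sets above the pooled 40th percentile (16.9) on at least 2 arrays were tested, which left 6220. Gene names came from the platform's annotation, and 6994 symbols were brought up to date through gene identifiers; 7006 probe sets carried 1 symbol, 308 several and 1426 none. The models (lmFit, eBayes with trend) used limma 3.58.1 under R 4.3.3 over all 7 groups, which share 1 spread, with Benjamini-Hochberg adjustment at 0.05. Trained is the equal-weight mean of 6 hour groups. The hour comparisons share the 3 naive arrays. Named were all member probe sets; single-hour differences for those with an unadjusted p under 0.05 or else the smallest p; matrix list genes with such a p; defining markers; and the 3 most correlated genes per member. Outside this rule, single-hour differences were also given for Dcn rc_AI639233_s_at and X59859_i_at at 24 h, and for Dcn X59859_r_at at 12 h. Other marker genes and the mitochondrial probe sets were named after their values were seen. For summed levels of markers, the brightest probe set of each gene was used. The members and lists were chosen with earlier results of these data known. Promoter windows are RefSeq's (GRCr8). On simulated arrays of 6220 probe sets, trained against naive recovered 53 of 100 changes of 1 log2 unit and 91 of 100 of 2. There were 8 false calls. Noise there was normal and independent between probe sets, and each change was equal on all trained arrays. The members' median within-group SD was 0.557, against 0.368 over all tested probe sets, so these rates are not the members' own. The number of arrays limits the precision. Alternatives covered scaling, floor, filter, variance model, array weights, replicate block, covariates and leaving out each array.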

Additional observations from a re-analysis of the deposited data

How the results depend on the processing

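Each of the 29 member results was recomputed under 11 to 13 alternatives and with each of the 16 arrays left out, and none passed the adjusted threshold in those (lowest adjusted p 0.128, limma). Of the 27 with a direction, 10 kept it under every setting run for them and 17 changed it under at least 1. All 17 were among the 21 trained minus naive differences. The single-hour differences among these results, each picked for the smallest p of the members at its hour, all kept their direction. For the members that changed, the cause was not tested.

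The settings that turned a trained minus naive difference were these. With the actin 3'/5' ratio as a covariate, Col1a1 M27207mRNA_s_at was -0.83, Z78279_g_at -0.15 and Z78279_at 0.51, Col1a2 -0.35, Col3a1 X70369_s_at -0.70, Dcn X59859_i_at -0.29 and Fn1 X05834_at -0.083. With the Ttr level as a covariate, Dcn X59859_i_at was -0.59, Bgn U17834_at 0.51 and rc_AA859830_s_at 0.77. With it Fn1 U82612cds_at was 0.060, Sparc Y13714_at 0.34 and rc_AA891204_s_at 0.39. The Ttr level was itself lower on most trained arrays than on the naive ones. With brightness before scaling as a covariate, which was chosen after seeing the data, Col3a1 X70369_s_at was -0.063, Dcn X59859_i_at -0.35, Bgn U17834_at 0.025 and Sparc rc_AA892248_at -0.085. Under quantile normalization Col1a1 Z78279_at was 0.050, and Sparc rc_AA892248_at -0.078, rc_AA946313_s_at 0.013 and rc_AA891204_s_at 0.00302. Under median centring Col1a1 Z78279_at was 0.0360, Sparc Y13714_at 0.0011 and rc_AA946313_s_at 0.027. With array weights Col1a1 Z78279_at was 0.0040, Sparc Y13714_at 0.063 and rc_AA891204_s_at 0.033.

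Leaving out 1 array at a time gave ranges that crossed 0 for Col1a1 M27207mRNA_s_at (-0.38 to 0.41) and Z78279_at (-0.20 to 0.26), Col1a2 (-0.42 to 0.51), Col3a1 M21354_s_at (-0.29 to 0.27) and X70369_s_at (-0.32 to 0.48), and Dcn X59859_i_at (-0.61 to 0.76). They also did for Bgn U17834_at (-0.22 to 0.13) and rc_AA859830_s_at (-0.97 to 0.36), Sparc Y13714_at (-0.18 to 0.20), rc_AA946313_s_at (-0.17 to 0.11) and rc_AA891204_s_at (-0.15 to 0.13), Ncan AF060879_s_at (-1.22 to 0.024) and Bcan (-0.21 to 0.045). Dcn Z12298cds_s_at stayed between -1.55 and -0.83. Other ranges did not cross 0 but were wide, such as Dcn rc_AI639233_s_at (-0.79 to -0.17), Ncan M97161_at (-1.76 to -0.30) and Col1a1 rc_AI231472_s_at (0.06 to 0.67).

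Counts of called probe sets over the whole array were 0 in every comparison but 2 h against naive, which had 1 (477 at an unadjusted p under 0.05). Without the filter the counts were 1 for trained, 2 at 0 h, 8 at 2 h, 27 at 12 h, 23 over 7 groups and 24 over 6 hours. Without the variance trend they were 1 at 12 h and 2 in each F test, and array weights gave 6 at 24 h. Fitting only the groups compared gave 0 at 2 h, 2 at 12 h and 4 at 24 h, a floor at the 30th percentile gave 2 at 2 h, and the actin covariate gave 2 at 3 h. The 2 h count was 0 under quantile normalization and with the actin, Ttr and brightness covariates. Leaving out 1 array gave 0 to 17 for trained (17 without naive replicate 1, 2 without 0 h replicate 1), 0 to 0 at 0 h, 0 to 11 at 2 h, 0 to 9 at 3 h, 0 to 29 at 6 h (29 without 6 h replicate 3), 0 to 23 at 12 h (23 without 12 h replicate 2), 0 to 12 at 24 h, 0 to 8 over 7 groups and 0 to 7 over 6 hours. The highest counts at 2 h, 3 h and 24 h came without naive replicate 1, and those of both F tests without 6 h replicate 3.

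Same-numbered arrays of different groups deviated together weakly (43 pairs, r -0.20 to 0.19, median 0.02; 12 over 0.1), so the numbers were not taken as pairs. The replicate block left 0 calls in every comparison, also at 2 h, and turned Dcn X59859_i_at to -0.0383. By that measure 12 of the 16 arrays correlated best with their own number. In a group of 2 arrays the deviations from the group mean mirror each other, so these pairs and arrays are not separate observations. The labels state no pairing, and the counts cannot decide whether there was one.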
